A study of Homo sapiens with 12 samples.

Results

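Death receptors are cell-surface proteins of the TNF receptor superfamily that carry an intracellular death domain. The members of this system followed here are a list of names with no threshold on a measured value, drawn up with earlier results of these data known. They comprise FAS (the receptor for FAS ligand), TNFRSF10A and TNFRSF10B (the signalling receptors DR4 and DR5 for TRAIL), TNFRSF10C and TNFRSF10D (the decoy receptors for TRAIL), TNFRSF1A (TNF receptor type 1), FADD (the death-domain adaptor), CASP8 (the initiator caspase-8), CFLAR (its inhibitor c-FLIP) and RIPK1 (a receptor-associated kinase). All 10 members had 1 row each among the 60649 genes of every count file. The study measured bulk RNA by sequencing in spheroids of SBC3, a cell line labelled as small cell lung cancer, in 4 groups of 3 libraries. The groups were a control, each drug given alone, and teriflunomide given together with lurbinectedin, called the combination here. Teriflunomide inhibits DHODH, an enzyme needed to make pyrimidines. Lurbinectedin binds in the minor groove of DNA and blocks transcription by RNA polymerase II. The labels give no dose, no exposure time and no vehicle for the control group. The series' stated interest is synergy of teriflunomide with chemotherapeutics, and the comparisons here ask how the death receptor genes differed between each treatment and control, and between the combination and each drug alone.

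Binding of a ligand gathers the receptor chains, and their death domains recruit FADD, which in turn brings in caspase-8. Caspase-8 then cleaves the executioner caspases, while c-FLIP, which resembles caspase-8 but lacks its protease activity, takes its place in the complex and restrains it. Decoy receptors bind TRAIL without a full death domain. TNF receptor type 1 first recruits TRADD and RIPK1, which serve survival signalling through NF-kB or, when deubiquitinated, cell death. FAS and TNFRSF10B are textbook targets of the transcription factor p53, and CFLAR is a textbook target of NF-kB.

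Promoter stretches are shown for the 3 members in which a search for a single p53 decamer or an NF-kB element found a match. A full p53 element holds 2 such decamers, and full p53 elements were not searched for. The search covered the 250 bases before each annotated start, on both strands, in 15 windows of the 6 members other than the TRAIL receptors, from the RefSeq promoter table of GRCh38.p14. The capitals mark the matched letters, read 5′ to 3′ on the plus strand. The first 2 stretches are from FAS, at chr10:88991299-88991328 for the p53 decamer and chr10:88991264-88991293 for the NF-kB element, the CASP8 stretch is at chr2:201257904-201257933, and the CFLAR stretch is at chr2:201118609-201118638.
FAS, p53 decamer: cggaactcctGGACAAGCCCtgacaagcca
FAS, NF-kB element: ggtcgctggaGGGGGACCCCggttggagag
CASP8, p53 decamer: ctttccaataAAGCATGTCCagcgctcggg
CFLAR, NF-kB element: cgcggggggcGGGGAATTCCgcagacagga
The p53 decamer had a match in 2 of the members' 15 windows and in 5.57% of all 35116 windows of the table, and the NF-kB element in 2 of 15 and in 5.21%. Some windows of FAS and of RIPK1 overlap, so the 15 are not separate promoters. The matches lay 122 and 157 bases before a FAS start, 121 before a CASP8 start and 97 before a CFLAR start. The FAS and CFLAR stretches lie inside exons of other transcripts of the same gene, and the CASP8 stretch lies outside its exons. A match describes letters and is not evidence of binding.

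Total counts were between 23206414 and 33222162 per library. Nothing in the labels says that the 3 libraries of a group came from separate cultures, so p-values measure only the spread between these libraries, which may be technical. Teriflunomide replicate 3 stood apart from the others, with a score of 65.6 on the second principal component against -24.0 to 25.8 in the other 11 libraries. The share of counts from mitochondrially encoded genes was 22.6% there and 24.9% in combination replicate 2, against 6.26% to 17.1% in the other 10 libraries. Results below are given without teriflunomide replicate 3 where it decides them, and the part of this library's state in them was not tested. Of the 8 small cell lung cancer and neuroendocrine markers, INSM1 and GRP had 0 counts in all 12 libraries, and NCAM1 did not exceed 0.0681 CPM, so these 3 markers of the labelled type were at or near 0. NEUROD1, at 1.5 to 6.51 CPM, and SYP, at 14.1 to 36.2 CPM, were detected in all libraries. The summed level of the list was 22.2 to 23.6 CPM (counts scaled to library totals adjusted by edgeR's TMM factors) in control, 21.3 to 21.7 with teriflunomide, 34.1 to 36.2 with lurbinectedin and 38.0 to 40.3 in the combination. The summed immune markers did not exceed 0.479 CPM and the endothelial markers did not exceed 0.579 CPM in any library. The fibroblast list, carried by the collagen genes, summed to 520 to 550 CPM in control and 187 to 221 CPM with lurbinectedin, and its part in the results was not tested.

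FAS and TNFRSF10B, the receptors for FAS ligand and TRAIL, were higher with lurbinectedin and in the combination than in control. The decoy TNFRSF10C was lower in both of these groups and higher with teriflunomide alone. The adaptor FADD and the receptor TNFRSF1A were not called different from control in any treated group. CFLAR was called higher with teriflunomide and in the combination, CASP8 with teriflunomide alone, and RIPK1 in both groups that received lurbinectedin. For CFLAR and RIPK1, every treated library was above every control in TMM-scaled CPM, but not when counts are divided by total counts alone. The share of all genes with such a separation was not counted. The combination was not called different from teriflunomide for RIPK1, or from lurbinectedin for CFLAR. A gene is called where its adjusted p from edgeR's quasi-likelihood test with Benjamini-Hochberg adjustment over all 16683 genes tested is under 0.05, and all adjusted p-values below are from that fit.

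Levels of different genes were compared per kilobase of exon length, as CPM per kb. In control, TNFRSF10B was the highest at 48.4 ± 1.18 (SD, n = 3), followed by FADD at 26.1 ± 0.837 and TNFRSF1A at 15.1 ± 0.348. The other adaptors and FAS were lower, with CASP8 at 3.11 ± 0.162, RIPK1 at 2.61 ± 0.112, FAS at 1.56 ± 0.0189 and CFLAR at 1.22 ± 0.0470. The decoys and DR4 were the lowest, with TNFRSF10C at 0.290 ± 0.0468, TNFRSF10A at 0.0522 ± 0.0342 and TNFRSF10D at 0.00282. The ranges of neighbours in this order did not overlap in control. With teriflunomide FAS stood above RIPK1, at 3.52 against 3.09 CPM per kb. With lurbinectedin FAS reached 12.5 ± 0.610, a range that overlapped that of TNFRSF1A at 13.3 ± 0.547, and TNFRSF10B reached 209 ± 7.36. CASP8 and RIPK1 also overlapped each other there, at 3.42 and 3.24, as did TNFRSF10C and TNFRSF10D at 0.0816 and 0.0798. In the combination TNFRSF10B was at 206 ± 4.60, FADD at 22.3, TNFRSF1A at 13.7 with FAS at 13.5 in overlapping ranges, RIPK1 at 3.40, CASP8 at 2.93 and CFLAR at 1.87. The 3 lowest, TNFRSF10A at 0.129, TNFRSF10C at 0.0835 and TNFRSF10D at 0.0320, had overlapping neighbours there. The exon length is that of the union of all annotated exons, which is 22.5 kb for CFLAR and 1.71 kb for FADD, so these levels depend on the annotation.

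**Figure D1:**
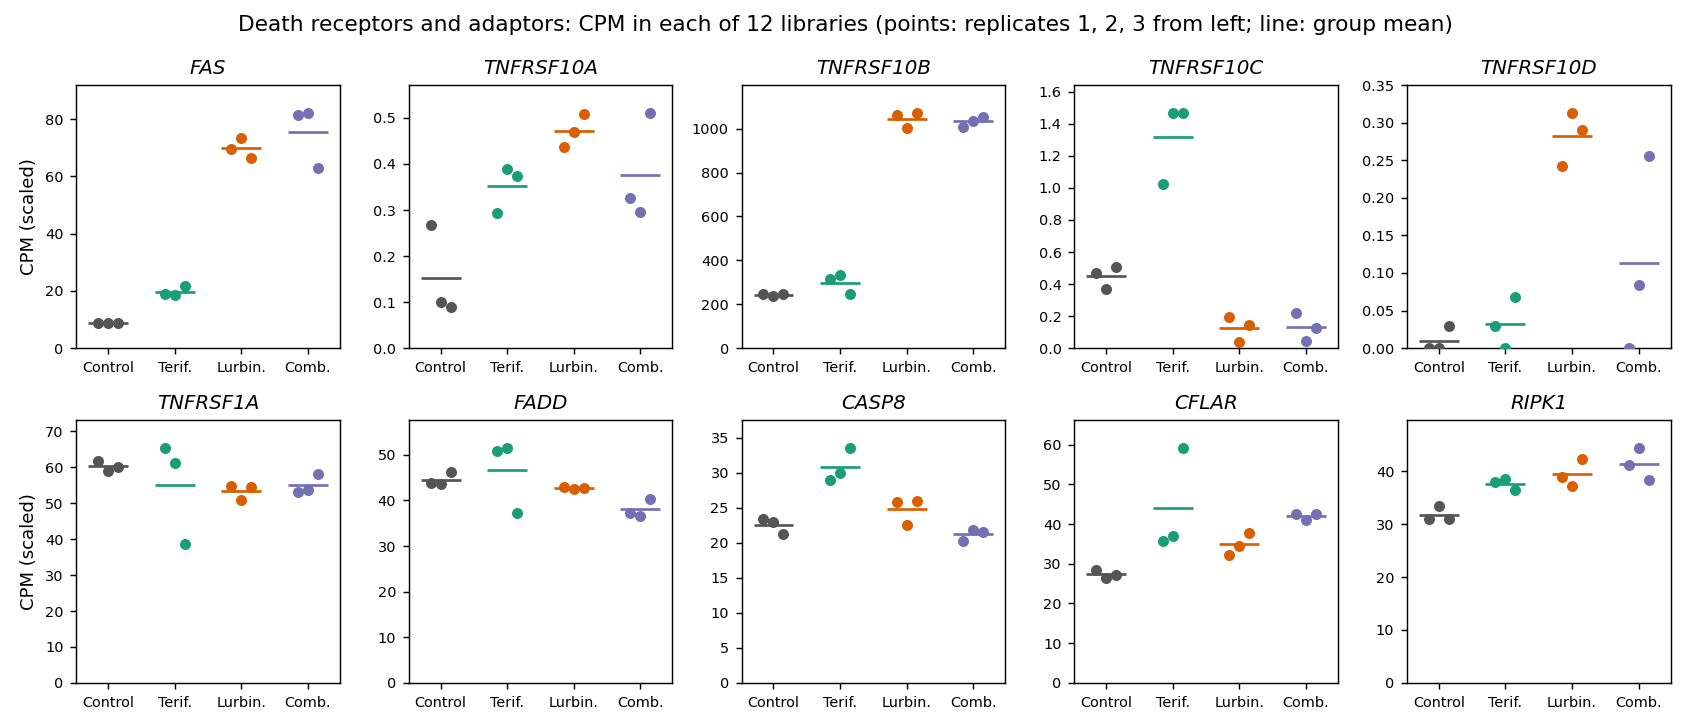
Level of each of the 10 genes in CPM on scaled library sizes (vertical axes, from 0) in the 12 libraries by group (horizontal axes); points are replicates 1, 2 and 3 from left to right and lines are group means. FAS lies between 8.60 and 8.81 CPM in control and between 63.0 and 82.1 CPM in the 6 libraries with lurbinectedin.

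FAS (ENSG00000026103.22, hg38 chr10:88990531-89017059, plus strand) was low in control and rose in every treated group. Its level was 8.81, 8.73 and 8.60 CPM in the 3 control libraries and 18.8, 18.5 and 21.6 CPM with teriflunomide. With lurbinectedin it was 69.5, 73.3 and 66.5 CPM, and in the combination 81.4, 82.1 and 63.0 CPM. The control, teriflunomide and lurbinectedin libraries formed separate ranges, whereas the combination spanned the lurbinectedin range. FAS rose 2.25-fold with teriflunomide (log2 fold change 1.17, SE 0.125, adjusted p = 0.000358). It rose 8.0-fold with lurbinectedin (log2 fold change 3.0, SE 0.130, adjusted p = 2.52e-10) and 8.66-fold in the combination (3.11, SE 0.131, adjusted p = 2.20e-10). These 3 calls were kept under every alternative run. FAS shares exon bases with 3 annotated genes. ENSG00000261438.1, on the same strand, shares 1224 bases, 21.9% of the FAS exon length, and had 0 counts. ENSG00000286116, on the other strand, shares 1043 bases (18.7%) and had 166 counts over all libraries against 14011 for FAS. Its log2 fold change with lurbinectedin was 2.55 (adjusted p = 3.85e-05). ACTA2, also on the other strand, shares 380 bases (6.81%). ACTA2, which encodes smooth muscle actin, was at 13.6 CPM in control, 29.1 with teriflunomide, 20.8 with lurbinectedin and 23.7 in the combination. Whether reads were counted by strand is not given in the sources used here, and the part of shared reads in the FAS values was not tested.

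TNFRSF10B, which encodes the TRAIL receptor DR5 (ENSG00000120889.13, hg38 chr8:23020133-23069031, minus strand), was the most abundant member and rose further wherever lurbinectedin was given. Its control libraries were at 245, 236 and 247 CPM. The teriflunomide libraries were at 316, 335 and 245 CPM, so that replicate 3 fell among the controls. With lurbinectedin the values were 1064, 1004 and 1071 CPM, and in the combination 1009, 1035 and 1055 CPM. All 6 of these libraries lay above all 6 without lurbinectedin, and the lurbinectedin and combination ranges overlapped. The increase was 4.31-fold with lurbinectedin (log2 fold change 2.11, SE 0.111, adjusted p = 1.26e-09) and 4.26-fold in the combination (2.09, SE 0.111, adjusted p = 1.72e-09). With teriflunomide alone the log2 difference was 0.30 (SE 0.107) and was not called (adjusted p = 0.107). Without teriflunomide replicate 3 it was 0.42 and was called (adjusted p = 0.00149, with a range of 0.000125 to 1 over the alternatives).

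TNFRSF10A, which encodes the other signalling TRAIL receptor DR4 (ENSG00000104689.10, hg38 chr8:23190452-23225102, minus strand), was near the detection limit. Its counts were 8, 3 and 3 in control, 10, 13 and 11 in the teriflunomide group, 9, 12 and 14 in the lurbinectedin group, and 9, 7 and 16 in the combination. In CPM these are 0.268, 0.100 and 0.0896 in control and 0.436, 0.469 and 0.509 with lurbinectedin. The lurbinectedin libraries lay above the controls on the CPM scale, and so did the combination libraries, at 0.326, 0.295 and 0.511. TNFRSF10A rose with lurbinectedin (log2 fold change 1.62, SE 0.428, adjusted p = 0.00363) and in the combination (1.32, SE 0.435, adjusted p = 0.0148). Without control replicate 1, which held 8 of the 14 control counts, the log2 fold changes were 2.26 and 1.96, and with any 1 library left out they ranged from 1.34 to 2.26 and from 1.03 to 1.96. The combination call was lost without control replicate 2, control replicate 3 or combination replicate 3. Summed over each group, 35 counts with lurbinectedin against 14 in control gave a ratio of 3.16 after scaling, with a 95% exact interval of 1.66 to 6.36 that covers counting error only. With teriflunomide the log2 difference was 1.20 (SE 0.431) and was not called (adjusted p = 0.111). TNFRSF10A shares 266 bases of exon with TNFRSF10A-DT on the other strand, which had 765 counts over the 12 libraries against 115 for TNFRSF10A. TNFRSF10A-DT was itself at 0.539 CPM in control and 4.21 CPM with lurbinectedin, and the part of shared reads was not tested.

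TNFRSF10C (ENSG00000173535.15, hg38 chr8:23102921-23117445, plus strand), a decoy that is anchored to the membrane without a death domain, moved in opposite directions with the 2 drugs. It had 14, 11 and 17 counts in control, or 0.469, 0.368 and 0.508 CPM. With teriflunomide it had 35, 49 and 43 counts, or 1.03, 1.47 and 1.47 CPM. With lurbinectedin it had 4, 1 and 4 counts, and in the combination 6, 1 and 4. The teriflunomide libraries were all above the controls, and all 6 libraries with lurbinectedin were below the controls. TNFRSF10C rose with teriflunomide (log2 fold change 1.54, SE 0.326, adjusted p = 0.0165), a call that was lost without any 1 of the 3 control libraries and when libraries were scaled by total counts alone (adjusted p = 0.0527, with a range of 0.000767 to 0.237 over the alternatives). It fell with lurbinectedin (log2 fold change -1.84, SE 0.499, adjusted p = 0.00448) and in the combination (-1.73, SE 0.476, adjusted p = 0.00529). As ratios of summed counts, the decoy was at 2.91 of control with teriflunomide (95% exact interval 2.04 to 4.23), 0.271 with lurbinectedin (0.116 to 0.565) and 0.295 in the combination (0.137 to 0.584). TNFRSF10C shares 261 bases, 16.9% of its exon length, with ENSG00000284948 on the same strand, whose log2 fold change was -1.84 with lurbinectedin (adjusted p = 0.000483), -0.87 in the combination (adjusted p = 0.0262) and 0.25 with teriflunomide (adjusted p = 0.597). Reads from the shared bases cannot be assigned to either gene, and their part in the result was not tested.

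TNFRSF10D (ENSG00000173530.6, hg38 chr8:23135588-23164027, minus strand), a decoy with a truncated death domain, did not pass the filter on low counts and was not tested. Its counts were 0, 0 and 1 in control, 1, 0 and 2 in the teriflunomide group, 5, 8 and 8 in the lurbinectedin group, and 0, 2 and 8 in the combination. The 3 lurbinectedin libraries held more counts than any control or teriflunomide library, and the combination libraries were spread over the whole range. The ratio of 21 counts with lurbinectedin to 1 in control was 26.6, with a 95% exact interval of 4.27 to 1098. The direction was thus opposite to that of the other decoy in the same libraries, at a level of no more than 0.313 CPM.

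TNFRSF1A (ENSG00000067182.8, hg38 chr12:6328757-6342114, minus strand), the receptor for TNF itself, varied little outside a single library. It was at 61.8, 59.1 and 60.1 CPM in control, 54.8, 50.9 and 54.6 CPM with lurbinectedin, and 53.1, 53.7 and 58.2 CPM in the combination. With teriflunomide it was at 65.4, 61.3 and 38.7 CPM, the last in the library that stood apart. The libraries with lurbinectedin were all below the controls, by a log2 difference of -0.18 that was not called (95% interval -0.51 to 0.15, adjusted p = 0.316). The combination differed from control by -0.13 (adjusted p = 0.455). With only the control and lurbinectedin libraries in the fit, the decrease was called (adjusted p = 0.00381, with a range of 0.00381 to 1 over the alternatives).

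FADD (ENSG00000168040.5, hg38 chr11:70203296-70207390, plus strand), the adaptor shared by FAS and the TRAIL receptors, was at 43.7, 43.6 and 46.2 CPM in control and 43.0, 42.5 and 42.7 CPM with lurbinectedin. In the combination it was at 37.3, 36.7 and 40.3 CPM, and with teriflunomide at 50.9, 51.5 and 37.3 CPM. The levels with lurbinectedin were just under the lowest control, and those in the combination were all below the lurbinectedin range. The log2 difference from control was 0.07 with teriflunomide (adjusted p = 0.766), -0.06 with lurbinectedin (95% interval -0.32 to 0.20, adjusted p = 0.675) and -0.22 in the combination (-0.49 to 0.04, adjusted p = 0.117), with none called. In the fit of all libraries, the transcript of the adaptor was thus not called changed in the groups in which FAS and TNFRSF10B rose. Without teriflunomide replicate 3 and combination replicate 2, a choice made after the data were seen, FADD was called lower in the combination. The log2 difference from control was then -0.21 (adjusted p = 0.0257). ENSG00000254721 overlaps 59.2% of the FADD exons on the other strand but had 200 counts over all libraries against 15018 for FADD.

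RIPK1 (ENSG00000137275.16, hg38 chr6:3063824-3115187, plus strand), the kinase of the TNF receptor complex, was modestly higher in the treated groups. Its control libraries were at 31.0, 33.4 and 31.0 CPM, the teriflunomide libraries at 38.0, 38.5 and 36.5 CPM, the lurbinectedin libraries at 38.9, 37.3 and 42.2 CPM, and the combination libraries at 41.2, 44.4 and 38.4 CPM. On this TMM scale all 9 treated libraries were above all 3 controls, an order that is not kept per total counts alone. The increase was called with lurbinectedin (log2 fold change 0.31, SE 0.102, adjusted p = 0.0141) and in the combination (0.38, SE 0.102, adjusted p = 0.00464), and not with teriflunomide (0.24, SE 0.102, adjusted p = 0.159). Both calls were lost when libraries were scaled by total counts alone, at 0.08 (adjusted p = 0.626) and 0.20 (adjusted p = 0.209). They were also lost with no expression filter (adjusted p = 0.252 and 0.0955) and under a 1.5-fold TREAT test. The call with lurbinectedin was also lost without control replicate 1, control replicate 3 or lurbinectedin replicate 3, and its adjusted p ranged from 0.000205 to 1 over the alternatives.

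CASP8 (ENSG00000064012.22, hg38 chr2:201233443-201287711, plus strand) and its inhibitor CFLAR (ENSG00000003402.20, hg38 chr2:201116154-201176687, plus strand) are neighbours on chromosome 2. CASP8 was at 23.4, 23.0 and 21.2 CPM in control, 29.0, 30.0 and 33.6 CPM with teriflunomide, 25.9, 22.6 and 25.9 CPM with lurbinectedin, and 20.3, 21.8 and 21.5 CPM in the combination. The teriflunomide libraries were above all others, and the remaining 3 groups adjoined or overlapped one another. CASP8 rose with teriflunomide (log2 fold change 0.45, SE 0.109, adjusted p = 0.0292). It differed from control by 0.14 with lurbinectedin (95% interval -0.10 to 0.37), a difference that becomes -0.10 when libraries are scaled by total counts alone, and by -0.09 in the combination. CFLAR was at 28.5, 26.4 and 27.1 CPM in control, 35.8, 37.0 and 59.2 CPM with teriflunomide, 32.3, 34.6 and 37.9 CPM with lurbinectedin, and 42.6, 40.9 and 42.5 CPM in the combination. For CFLAR on this TMM scale, every treated library was above every control, an order that is not kept per total counts alone. The highest was teriflunomide replicate 3. CFLAR rose with teriflunomide (0.69, SE 0.164, adjusted p = 0.0278) and in the combination (0.62, SE 0.164, adjusted p = 0.00406). With lurbinectedin the CFLAR difference of 0.35 was not called (SE 0.164, adjusted p = 0.0671). It was called with only the groups compared in the fit (adjusted p = 5.69e-05) or with a filter at 1 CPM (adjusted p = 0.0411). When libraries were scaled by total counts alone it shrank to 0.12 (adjusted p = 0.510). The adjusted p ranged from 5.69e-05 to 0.904 over the alternatives. Without teriflunomide replicate 3 the teriflunomide increases were 0.41 for CFLAR (adjusted p = 0.010) and 0.38 for CASP8 (adjusted p = 0.0223). Both teriflunomide calls were lost without any 1 of the control libraries and when scaled by total counts alone. They were also lost under the replicate block, under the 1.5-fold TREAT test and with only the groups compared in the fit. In that last fit the adjusted p was 0.119 for CFLAR and 0.0780 for CASP8. The call of CASP8 was lost as well without teriflunomide replicate 2 and with no expression filter. Over the alternatives their adjusted p ranged from 0.00114 to 1 for CFLAR and from 0.000951 to 1 for CASP8.

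**Figure D2:**
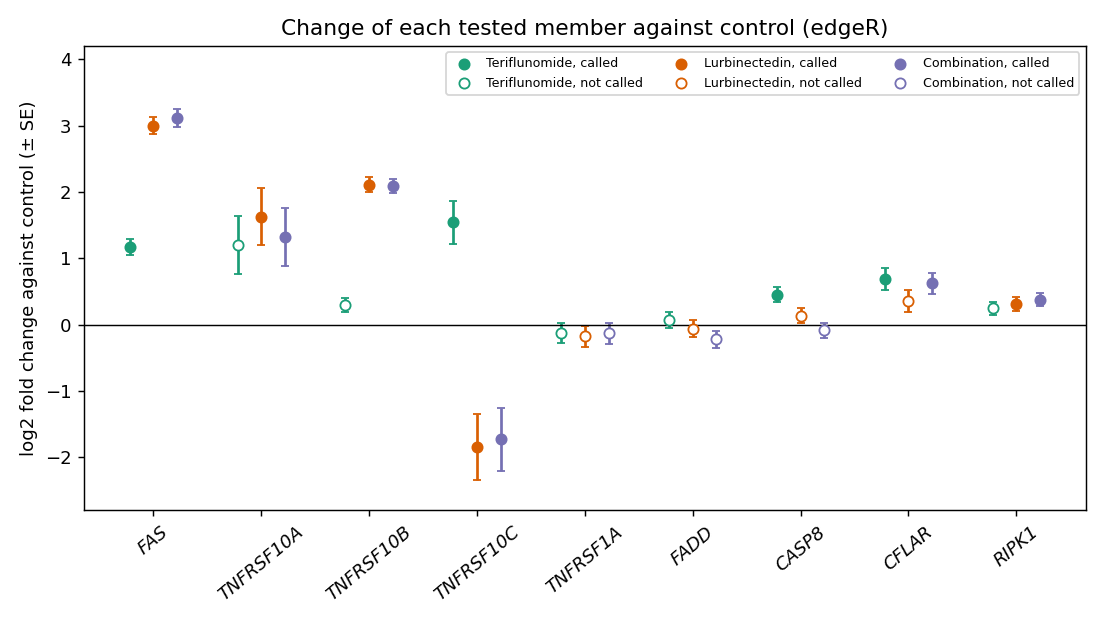
Log2 fold change against control (vertical axis) of the 9 tested members (horizontal axis) for each treated group, with SE bars from the fit over 12 libraries; filled points passed the threshold. FAS, at 3.0 and 3.11, and TNFRSF10B, at 2.11 and 2.09, are the highest points with lurbinectedin and in the combination, and TNFRSF10C, at -1.84 and -1.73, is the lowest.

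The ratio of CFLAR to CASP8, both in CPM per kb, was highest in the combination. It was 0.392, 0.370 and 0.412 in control, 0.399, 0.398 and 0.569 in the teriflunomide group, 0.402, 0.494 and 0.471 in the lurbinectedin group, and 0.677, 0.604 and 0.636 in the combination. The 3 combination libraries were above the other 9, and the nearest of those was teriflunomide replicate 3. The group means were 0.391 ± 0.0208, 0.455 ± 0.0983, 0.455 ± 0.0478 and 0.639 ± 0.0364 (SD, n = 3) in the same order. The ratio of the decoys TNFRSF10C and TNFRSF10D to the signalling receptors TNFRSF10A and TNFRSF10B was 0.00603 ± 0.000905 in control and 0.0148 ± 0.00458 with teriflunomide. It was 0.000768 with lurbinectedin and 0.000560 in the combination. All teriflunomide libraries were above the controls in this ratio and all libraries with lurbinectedin were below them. Its denominator is almost all TNFRSF10B, at 48.4 CPM per kb in control and 209 with lurbinectedin, so the rise of TNFRSF10B by itself lowers the ratio. The numerator rests on few counts, 1 to 49 of TNFRSF10C and 0 to 8 of TNFRSF10D per library. With lurbinectedin the 2 decoys contributed about equally to it, at 0.0816 and 0.0798 CPM per kb. Both ratios are descriptions for which no test was made.

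**Figure D3:**
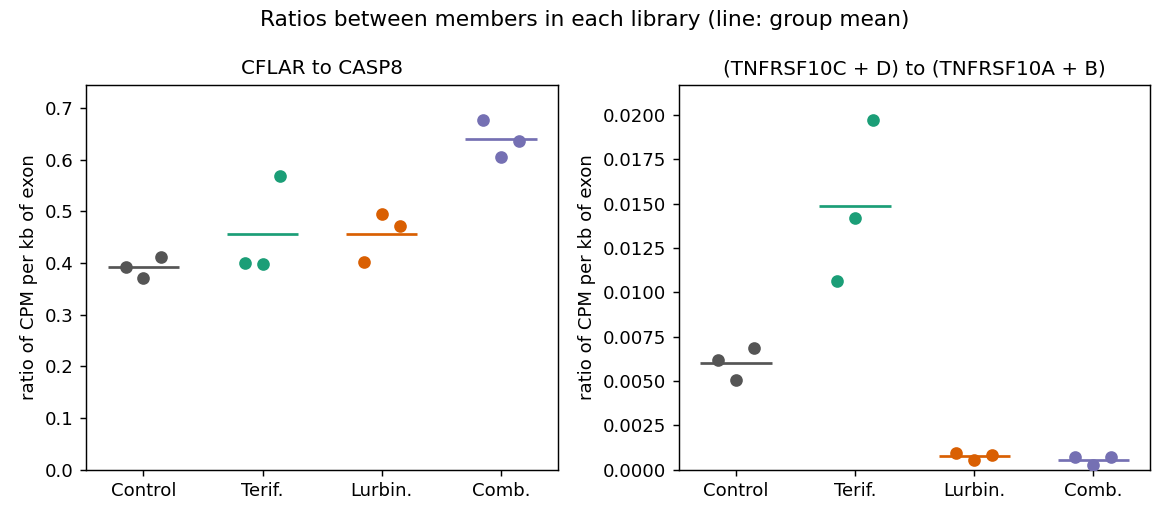
Ratio of CFLAR to CASP8 (left) and of the TRAIL decoys to the TRAIL signalling receptors (right), in CPM per kb of exon (vertical axes, from 0), in each library by group; lines are group means. The combination lies between 0.604 and 0.677 on the left, above the highest other library at 0.569, and all 6 libraries with lurbinectedin lie under 0.001 on the right.

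Counted over the list, 4 of the 9 tested members rose with teriflunomide and 0 fell, where 6.01% of all genes tested were called, 3.88% higher and 2.13% lower. With lurbinectedin 4 rose and 1 fell, where 71.6% of all genes were called, 36.0% higher and 35.7% lower. In the combination against control 5 rose and 1 fell, where 68.4% were called, 34.1% higher and 34.4% lower. The shares of members called with lurbinectedin and in the combination are near those of all genes, so the counts alone say nothing of the members there. The list was drawn up with earlier results of these data known, so the teriflunomide count and the medians below are descriptions and no test. That count was 1 to 5 when each library was left out in turn. The median log2 fold change of the tested members was 0.45 with teriflunomide, 0.31 with lurbinectedin and 0.38 in the combination, beside medians of 0.03, 0.05 and 0.04 over all genes. These 3 comparisons share the control libraries. By size, FAS ranked 326 from the top of the 16683 genes with teriflunomide, 462 with lurbinectedin and 378 in the combination, and TNFRSF10B ranked 3919, 1019 and 946. In bulk RNA, fewer cells with a transcript and less transcript per cell cannot be told apart.

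Against teriflunomide alone, the combination had 2 members higher and 3 lower, where 70.9% of all genes were called, 35.2% higher and 35.8% lower. FAS was higher by a log2 difference of 1.94 (SE 0.123, adjusted p = 8.87e-09) and TNFRSF10B by 1.79 (SE 0.110, adjusted p = 6.88e-09). The decoy TNFRSF10C was lower by a log2 difference of -3.27 (SE 0.412, adjusted p = 7.67e-06), the largest fitted difference among the 9 tested members in any comparison. CASP8 was lower (log2 difference -0.54, SE 0.110, adjusted p = 0.000536) and so was FADD (-0.29, SE 0.122, adjusted p = 0.0460), whose call was lost under most alternatives. CFLAR differed by -0.07 (adjusted p = 0.724) over all libraries and by 0.20 without teriflunomide replicate 3.

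Against lurbinectedin alone, 0 members were called in the combination by edgeR's quasi-likelihood test, where 0% of all genes were called. At an unadjusted p under 0.05 there were 0 members and 2599 genes in all, and DESeq2 called 0 members, with no adjusted p for TNFRSF10A and TNFRSF10C, and 584 genes. The estimates were small for the receptors, with a log2 difference of 0.11 for FAS (95% interval -0.14 to 0.37) and -0.02 for TNFRSF10B (-0.25 to 0.21, and 0.05 when scaled by total counts alone). CFLAR was above every lurbinectedin library in all 3 combination libraries, by 0.27 (95% interval -0.08 to 0.62, adjusted p = 0.448). CASP8 was below every lurbinectedin library, by -0.22 (-0.46 to 0.01, adjusted p = 0.340). For TNFRSF10C the interval, -1.25 to 1.47, was wide because of its few counts. Leaving out combination replicate 2 raised the number of genes called from 0 to 259. Without both this library and teriflunomide replicate 3, a choice made after the data were seen, 3640 genes were called and CFLAR was the member among them (log2 difference 0.29, adjusted p = 0.0228).

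The effect of teriflunomide was compared between cells with and without lurbinectedin through the interaction of the 2 drugs. FAS rose by 1.17 on the log2 scale with teriflunomide alone and differed by 0.11 when teriflunomide was added to lurbinectedin, an interaction of -1.06 (SE 0.172, 95% interval -1.43 to -0.69, adjusted p = 0.0196). FAS was the member called, where 0.258% of all genes had an interaction and 0.222% a negative one. The combined increase in FAS was thus less than the sum of the log2 changes of each drug alone. The call was lost without any 1 of the control libraries, any 1 of the lurbinectedin libraries or combination replicate 1, and when scaled by total counts alone, and its adjusted p ranged from 5.58e-06 to 0.753 over the alternatives. The interaction of CASP8 was -0.68 (SE 0.155, adjusted p = 0.118) and that of TNFRSF10B was -0.32 (SE 0.151, adjusted p = 0.492). Without teriflunomide replicate 3, the interaction was called for FAS at -0.98 (adjusted p = 0.00229), for TNFRSF10B at -0.43 (adjusted p = 0.0226) and for CASP8 at -0.60 (adjusted p = 0.0227). Over the alternatives the adjusted p ranged from 0.0041 to 1 for TNFRSF10B and from 0.0027 to 1 for CASP8.

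**Figure D4:**
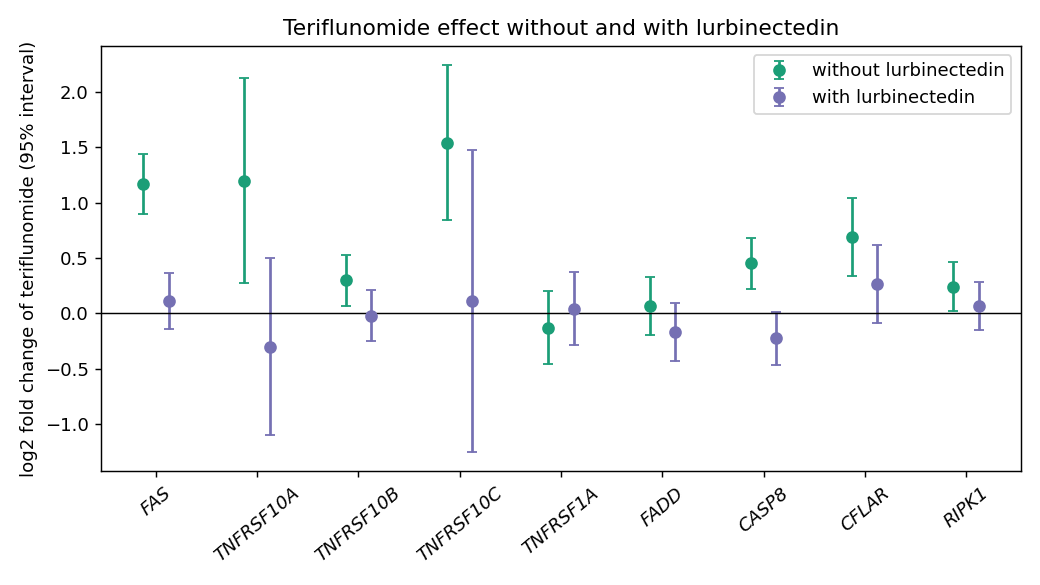
Log2 fold change of teriflunomide (vertical axis) for the 9 tested members (horizontal axis), in libraries without lurbinectedin (teriflunomide against control) and with it (combination against lurbinectedin); bars are 95% intervals from the fit. The 2 intervals of FAS, 0.90 to 1.44 and -0.14 to 0.37, do not overlap.

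Changes with lurbinectedin vary with gene span in these libraries, so each member was set beside the genes of its own class of genomic span, with the genes divided into 5 equal classes from the shortest (class 1) to the longest (class 5). The median log2 fold change with lurbinectedin was 0.69 in class 1 and -1.86 in class 5, with 0.62, 0.28 and -0.36 between them. FAS, which spans 26.5 kb in class 3, was 2.73 above the median of its class on the log2 scale, at percentile 98.2. TNFRSF10B, which spans 48.9 kb in class 4, was 2.46 above, at percentile 97.7, and TNFRSF10A was 1.35 above, at percentile 92.7. FAS and the signalling TRAIL receptors thus stood near the top of the genes of like span, TNFRSF10A on few counts. The decoy TNFRSF10C, in class 2, was at percentile 2.43. RIPK1, CFLAR and CASP8, all in class 4, were 0.67, 0.71 and 0.49 above the median of their class, at percentiles 77.3, 78.6 and 70.4. FADD, the shortest member at 4.10 kb, and TNFRSF1A differed from the median of theirs by -0.75 and -0.79, at percentiles 25.0 and 19.8. Both stood in the lower part of the genes of like span although they differed little from control.

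The genes with the profile nearest to 3 of the members over the 12 libraries were found by the distance between centred log2 CPM values. For FAS these were TP53INP1 (root mean square difference 0.140 per library on the log2 scale, Pearson r = 0.997), SAT1 (0.161) and DSEL (0.178). For TNFRSF10B they were PRKAR1B-AS1 (0.0805), ERFE (0.0919) and CSRNP2 (0.0966). For CFLAR they were CCDC92 (0.0847), CEACAM1 (0.0944) and TAB3 (0.0949). These likenesses are across 12 libraries that fall into 4 groups and describe which genes followed the same order of groups.

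Of 42 other genes of the death receptor pathway, 32 passed the filter. Unlike the members, they were not set beside their class of genomic span, with which changes with lurbinectedin vary. With teriflunomide 2 rose and 0 fell, with lurbinectedin 14 rose and 10 fell, and in the combination against control 14 rose and 10 fell. Beside these counts, 6.01%, 71.6% and 68.4% of all genes tested were called in the same 3 comparisons, shares near those of the pathway genes, so the counts are no result about the pathway. The medians of the pathway genes on the log2 scale were 0.18, 0.21 and 0.27, respectively. In the combination 14 were higher and 11 lower than with teriflunomide, and 0 were called against lurbinectedin. The 2 that rose with teriflunomide were CASP10, an initiator caspase related to caspase-8 (log2 fold change 0.48, adjusted p = 0.0482), and CYLD, a deubiquitinase acting on RIPK1 (0.55, adjusted p = 0.0131). CYLD falls outside the naming rule and is given because the count is small.

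Among the 6 ligands, TNFSF10, the gene for TRAIL, passed the filter. It had 35 counts over the control libraries, 74 with teriflunomide, 12 with lurbinectedin and 22 in the combination, and it fell with lurbinectedin (log2 fold change -1.18, adjusted p = 0.0155). FASLG, the gene for FAS ligand, had 0 counts in all 12 libraries, which allows up to 0.00866 CPM over the series at 3 counts. Of 8 other receptors 6 were tested, and 2 rose and 2 fell with lurbinectedin and in the combination, where 71.6% and 68.4% of all genes were called. TNFRSF12A, the TWEAK receptor, went from 7.88 CPM in control to 35.0 with lurbinectedin and 35.5 in the combination (log2 fold changes 2.15 and 2.17). NGFR, the p75 neurotrophin receptor with a death domain, went from 13.3 to 54.5 and 57.2 CPM (2.03 and 2.10). TNFRSF21, the death receptor DR6, went from 14.9 to 9.83 and 9.68 CPM (-0.60 and -0.63).

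All 9 other adaptors and initiators were tested, and 3 rose and 4 fell with lurbinectedin and in the combination. FAF1, a FAS-associated factor, went from 102 CPM in control to 1.53 with lurbinectedin and 2.05 in the combination (log2 fold changes -6.05 and -5.63). CRADD, an adaptor with a death domain for caspase-2, went from 51.7 to 13.2 and 14.0 CPM (-1.97 and -1.88). TRAF5 went from 29.6 to 10.3 and 13.2 CPM (-1.52 and -1.16), while CASP10 went from 9.51 to 31.8 and 30.1 CPM (1.74 and 1.66). The part of genomic span in the changes of these genes was not tested. Calls in both directions were also the rule over all genes, with 36.0% higher and 35.7% lower with lurbinectedin. FADD was not called in either comparison.

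Of 12 ubiquitin and kinase checkpoint genes 11 were tested, and 5 rose and 3 fell with lurbinectedin and in the combination, a share near the 71.6% and 68.4% of all genes called. TNFAIP3, the NF-kB feedback enzyme A20, went from 1.56 CPM in control to 12.5 and 9.71 (log2 fold changes 3.0 and 2.63). RNF31, the catalytic subunit of the linear ubiquitin ligase, went from 0.71 to 1.59 and 1.73 CPM (1.18 and 1.29). TAB2, an adaptor of the kinase TAK1, went from 119 to 62.1 and 76.5 CPM (-0.94 and -0.64), and XIAP, a caspase inhibitor, from 92.4 to 49.3 and 60.8 CPM (-0.91 and -0.60). Of 7 execution and necroptosis genes 5 were tested. With lurbinectedin 4 rose and 0 fell, and in the combination 4 rose and 1 fell, beside the same shares of all genes. DIABLO, an antagonist of XIAP, went from 1.90 to 5.51 and 6.05 CPM (1.53 and 1.66). BID, which links caspase-8 to mitochondria, fell in the combination (-0.47, adjusted p = 0.00319) and was at 15.9 CPM in control and 11.5 CPM there. RIPK3, the necroptosis kinase, had 0 counts in all libraries.

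**Figure D5:**
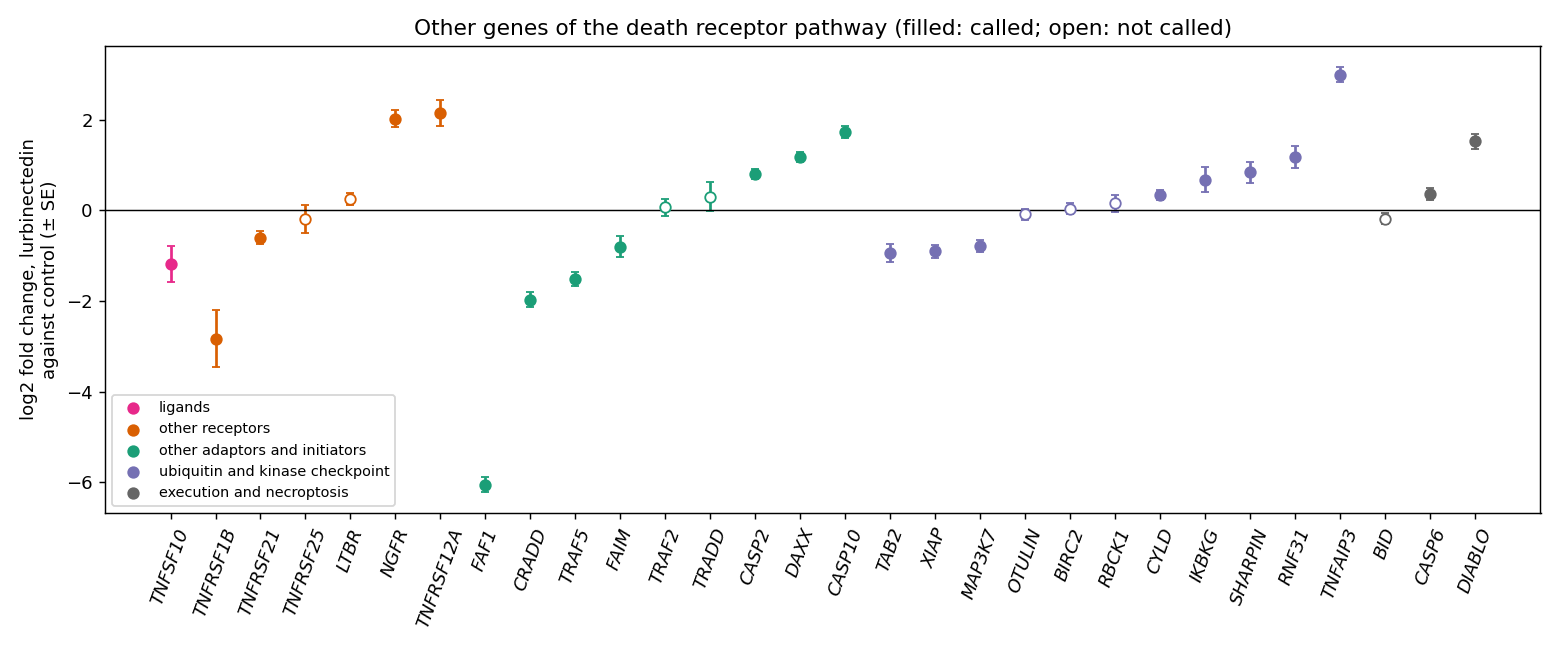
Log2 fold change with lurbinectedin against control (vertical axis, SE bars) of 30 of the 32 tested pathway genes (horizontal axis), coloured by role; filled points passed the threshold. FAF1 at -6.05 is the lowest point and TNFAIP3 at 3.0 the highest.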

How the data were processed

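RNA of SBC3 spheroids was sequenced in 12 libraries, 3 in each of 4 groups, which were read from the treatment given in the labels. The authors deposited raw counts per gene for each library. Fastp 0.23.2, STAR 2.7.9, Subread featureCounts and the build hg38 are named in the submitters' processing notes. The strand setting, the handling of reads that map to several places and the annotation release are not given in the sources used here. Of the 60649 gene IDs, 60463 (99.69%) matched a symbol. The members and all gene lists were chosen with earlier results of these data known.

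Counts were fitted with edgeR 4.0.16 (R 4.3.3, limma 3.58.1), with TMM scaling, filterByExpr over the groups and a robust quasi-likelihood fit of all 12 libraries with 1 mean per group. This left 16683 genes, 9 of the 10 members among them, and 6 contrasts were taken. P-values were adjusted by Benjamini-Hochberg over all genes tested in a contrast. SE values are the log2 fold change divided by the square root of F. CPM values were computed here on TMM-scaled library sizes from the deposited counts. Exact intervals and the limit of 3 counts for a count of 0 cover counting error only. The script was tested on simulated data. All members are named. Of each pathway list, at most 4 genes are named, those called against control with the largest change and a mean of at least 1 CPM in a group. A few genes of these lists are not reported here by name. Alternatives were other scalings, filters, thresholds and fits, DESeq2 1.42.0, a 1.5-fold TREAT test, a replicate block, and leaving out libraries.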

Additional observations from a re-analysis of the deposited data

Results flagged for a closer look

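FAS is flagged because its response to teriflunomide differed between libraries with and without lurbinectedin, by an interaction of -1.06 on the log2 scale. The call was lost in 10 of 21 alternatives at the same threshold. In CPM, the mean went from 8.71 ± 0.106 in control to 19.6 ± 1.71 with teriflunomide (SD, n = 3). It went from 69.7 ± 3.40 with lurbinectedin to 75.5 ± 10.9 in the combination, and a difference in response on the CPM scale was not tested. FAS was higher in 3 of 3 teriflunomide libraries than in every control library, while the combination libraries, at 81.4, 82.1 and 63.0 CPM, overlapped the lurbinectedin libraries, at 69.5, 73.3 and 66.5 CPM. The groups of 3 were too small for a check of single outlying samples.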

How the results depend on the processing

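Of 944 recomputed values of single members, 841 kept their direction and side of the threshold, 63 lost a call, 15 gained one and 25 changed sign. Members called with teriflunomide against control, 4 in the fit as reported, were 1 with scaling by library size only, 1 under the 1.5-fold TREAT test, 1 at an adjusted p under 0.01, 2 with only the groups compared, and 1 to 5 when each library was left out in turn. The replicate block gave 2, and 0 for the interaction. Libraries with the same number did not deviate together (correlations -0.40 to 0.14 over 18 pairs, and 2 of 12 libraries correlated best with their own number), so the numbers do not pair the libraries, and the block lowered all calls with teriflunomide from 1002 to 415. TREAT gave 3 for the combination against control (6 as reported) and 3 against teriflunomide (5 as reported). The interaction, 1 as reported, gave 0 with library size only, TREAT and an adjusted p under 0.01, 2 with DESeq2, and 0 to 3 with 1 library left out. Without teriflunomide replicate 3 and combination replicate 2, a choice made after seeing the data, the interaction gave 3 and the combination against lurbinectedin 1 (0 as reported). Pathway genes called with teriflunomide, 2 as reported, were 0 with library size only. With library size only the median of all genes moved from 0.05 to -0.18 with lurbinectedin and from 0.04 to -0.13 in the combination, and the share of calls that were higher from 50.2% to 39.2% and from 49.8% to 41.0%. Sign changes were in differences not called in the fit as reported. With library size only, CASP8 with lurbinectedin was -0.10 and TNFRSF10B between the combination and lurbinectedin 0.0496. TNFRSF1A between the combination and teriflunomide was 0.0452 with a 1 CPM filter, 0.0113 under the replicate block and 0.00466 with only the groups compared. Without those 2 libraries, TNFRSF1A was 0.0695 with teriflunomide and -0.00594 in the interaction, and CFLAR between the combination and teriflunomide was 0.22 and called (adjusted p = 0.0453). With 1 library left out, TNFRSF1A ranged from -0.27 to 0.07 and FADD from -0.00965 to 0.20 with teriflunomide, and TNFRSF1A from -0.0186 to 0.31 in the interaction. Between the combination and teriflunomide, TNFRSF10A ranged from -0.17 to 0.27 (0.30 without both), TNFRSF1A from -0.21 to 0.13 and CFLAR from -0.20 to 0.20, and between the combination and lurbinectedin, TNFRSF10B from -0.0388 to 0.00603, TNFRSF10C from -0.42 to 0.49 and TNFRSF1A from -0.000631 to 0.0756. The cause of these changes was not tested. Depth limits TNFRSF10A, TNFRSF10C and TNFRSF10D, with at most 49 counts in a library. The 1 CPM filter leaves TNFRSF10A untested, and so gives no value for it.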
